A study of Homo sapiens with 6 samples.

Results

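The mitotic spindle and kinetochore genes are 47 named genes of chromosome segregation, among 20037 protein-coding genes on chromosomes 1 to 22, X and Y. The 47 were listed by name and grouped by known role. Beside kinetochore and spindle genes the list holds some genes of cohesin, condensin and the anaphase-promoting complex, and the topoisomerase gene TOP2A. Other genes of these complexes belong to a second list, described at the end. MYC binding at these genes was measured by chromatin immunoprecipitation sequencing (ChIP-seq) in MIAPaCa2, an established human pancreatic ductal adenocarcinoma cell line. Before treatment every culture spent 48 hours without serum. Cells of the CM group were then exposed for 3 hours to serum-free medium conditioned by primary cancer-associated fibroblasts, and cells of the DMEM group to fresh DMEM that was also serum-free. There were 4 immunoprecipitated libraries, 2 per condition, and 2 inputs that were not used here. Whether the libraries of 1 condition are separate cultures is not said in the labels, so their spread may be technical.

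A gene was called bound in a library when a peak of the deposited list lay within 1000 bp of either outermost end of the gene. Bound in CM or in DMEM means a peak in both libraries of that condition, and CM-only genes are those bound in CM that had no peak in any DMEM library. Each peak carries the authors' score, which is given here as a percentile within its own list, so that 100 is the highest-scoring peak of that library. There were 15304 and 12797 peaks in CM libraries 1 and 2, against 4657 and 7652 in DMEM libraries 1 and 2, and read depth is unknown. A percentile therefore refers to lists of different length, and a difference of percentiles between conditions is not a change in binding. No read counts were used, so more binding in CM cannot be told apart from a deeper or richer library.

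Before a cell divides, each centromere assembles a kinetochore, a protein platform whose inner layer sits on the histone variant CENPA and whose outer layer holds the spindle microtubules. The spindle checkpoint delays anaphase until every chromosome is attached, by holding back CDC20, the activator of the anaphase-promoting complex. Condensin compacts chromosomes, cohesin holds sister chromatids together, and kinesin motors build the spindle. Most of these genes are transcribed late in the cell cycle. The element TTTGAA, called the cell cycle genes homology region, and the CCAAT box are well-known parts of such promoters, whereas MYC with its partner MAX recognises the E-box CACGTG and, less tightly, variants such as CACGCG.

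Promoter windows of the genes on which the results turn are shown first, because they carry these elements in different combinations. The sequences are from RefSeq on GRCh38.p14, 250 bases before to 50 after an annotated start, 5′ to 3′ on the gene's strand, and capitals mark matches on either strand to CACGTG, to CACGCG, to TTTGAA or to CCAAT. The RefSeq table matched 40 of the 47 genes and had no entry for BIRC5, BUB3, CENPH, KNL1, RAD21, TPX2 and TTK. ANAPC10, ANAPC1 and SMC3 were bound in all 4 libraries, INCENP and MAD1L1 are the CM-only genes with the highest mean CM percentiles, and CENPC is the first by name of the genes with no peak.
ANAPC10, chr4:145098522-145098821, minus strand: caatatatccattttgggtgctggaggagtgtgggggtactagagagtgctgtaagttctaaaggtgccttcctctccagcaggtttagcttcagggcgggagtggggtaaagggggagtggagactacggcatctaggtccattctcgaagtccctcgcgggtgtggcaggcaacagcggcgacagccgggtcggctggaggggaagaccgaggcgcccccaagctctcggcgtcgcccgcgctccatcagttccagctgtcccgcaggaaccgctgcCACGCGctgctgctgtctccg
ANAPC1, chr2:111884144-111884443, minus strand: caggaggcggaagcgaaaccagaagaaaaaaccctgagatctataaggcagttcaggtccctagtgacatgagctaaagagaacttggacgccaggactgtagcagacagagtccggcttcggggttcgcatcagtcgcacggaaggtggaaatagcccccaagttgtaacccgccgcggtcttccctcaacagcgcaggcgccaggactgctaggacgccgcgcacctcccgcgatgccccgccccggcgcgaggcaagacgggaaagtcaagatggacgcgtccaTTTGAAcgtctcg
SMC3, chr10:110567445-110567744, plus strand: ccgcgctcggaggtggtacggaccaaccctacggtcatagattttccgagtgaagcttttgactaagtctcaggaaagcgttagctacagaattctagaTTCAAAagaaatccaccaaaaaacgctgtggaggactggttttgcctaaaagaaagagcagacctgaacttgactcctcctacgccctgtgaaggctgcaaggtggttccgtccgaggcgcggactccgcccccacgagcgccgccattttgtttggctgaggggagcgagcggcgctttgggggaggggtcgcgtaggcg
INCENP, chr11:62123761-62124060, plus strand: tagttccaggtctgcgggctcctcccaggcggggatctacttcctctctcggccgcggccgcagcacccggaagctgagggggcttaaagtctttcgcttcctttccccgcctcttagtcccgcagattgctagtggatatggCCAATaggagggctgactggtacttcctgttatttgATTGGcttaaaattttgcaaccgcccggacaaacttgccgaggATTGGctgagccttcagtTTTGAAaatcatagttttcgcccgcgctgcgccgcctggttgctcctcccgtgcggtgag
MAD1L1, chr7:2232896-2233195, minus strand: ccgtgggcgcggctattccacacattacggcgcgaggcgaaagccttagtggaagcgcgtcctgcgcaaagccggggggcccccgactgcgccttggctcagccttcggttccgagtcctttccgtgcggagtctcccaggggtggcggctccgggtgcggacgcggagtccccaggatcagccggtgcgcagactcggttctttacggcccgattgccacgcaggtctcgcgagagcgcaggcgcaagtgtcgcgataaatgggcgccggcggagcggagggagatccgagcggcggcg
CENPC, chr4:67545454-67545753, minus strand: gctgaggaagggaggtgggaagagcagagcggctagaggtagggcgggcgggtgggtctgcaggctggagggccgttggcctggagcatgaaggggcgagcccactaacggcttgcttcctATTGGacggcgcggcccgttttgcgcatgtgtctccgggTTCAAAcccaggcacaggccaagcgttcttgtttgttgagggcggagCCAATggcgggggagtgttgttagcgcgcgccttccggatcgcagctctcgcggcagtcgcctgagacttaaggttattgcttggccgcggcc

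The 6 windows contain no CACGTG, and ANAPC10 alone among them contains CACGCG, once. ANAPC1, SMC3 and INCENP, which had peaks, and CENPC, which had none, each contain TTTGAA once. INCENP has 3 CCAAT boxes and CENPC 2. The matches marked in capitals do not overlap each other. MAD1L1 contains none of the 4 motifs and has the most CpG dinucleotides of the 6, with 42, against 20 to 27 in the others.

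Over 1 window for each of the 40 genes, TTTGAA was found in 27 windows, or 67.5%, against 12.2% of 15843 protein-coding genes in the same table. CCAAT was found in 25 windows, or 62.5%, against 36.4% of all. CACGTG was found in 3, those of CENPE, CENPF and PLK1, or 7.50% against 8.82% of all. CACGCG was found in 4, those of ANAPC10, KIF23, NCAPD2 and NCAPH, or 10.0% against 14.9% of all. TTTGAA stood in 17 of the 23 windows of genes bound in CM and in 10 of the 17 others, or 73.9% and 58.8%, beside 8.73% of all genes bound in CM and 14.7% of all others. The windows lie at annotated starts, whereas bound is by either gene end. SMC2 and SMC4, both with TTTGAA, count among the others, though both CM libraries had peaks at their annotated starts. All 4 windows with CACGCG belonged to genes bound in CM, where CACGCG stood in 17.4% of the windows, beside 22.3% for all genes bound in CM. CENPE, with a CACGTG, had no peak. A motif match describes the letters of these 300 bases and is not a measured site.

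In CM most of the mitosis genes had a MYC peak, and in DMEM few did. CM libraries 1 and 2 had peaks at 30 and 32 of the 47 genes, against 8 and 16 in DMEM libraries 1 and 2. The CM counts lie above both DMEM counts, with means of 31.0 ± 1.41 in CM and 12.0 ± 5.66 in DMEM (SD, n = 2 each), a difference of 19.0 genes. The exact two-sided permutation test gave p = 0.333, the smallest that 2 against 2 libraries allow. As shares of the 47, these are 63.8% and 68.1% in CM libraries 1 and 2, against 17.0% and 34.0% in DMEM libraries 1 and 2. The same shares over the 20037 genes were 43.9% and 40.9% in CM libraries 1 and 2, against 16.8% and 28.1% in DMEM libraries 1 and 2, so the mitosis genes stood further above all genes in CM than in DMEM. The ratio of mean counts, CM over DMEM, was 2.58 for the mitosis genes and 1.89 for all protein-coding genes.

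By condition, 28 of the 47 genes (59.6%) were bound in CM, where 39.1% of all genes were. In DMEM 5 were bound (10.6%), where 15.9% of all genes were. These 5, ANAPC1, ANAPC10, BIRC5, CENPH and SMC3, were bound in all 4 libraries, as were 15.9% of all genes. Another 12 (25.5%) were bound in both CM and 1 DMEM library, against 12.3% of all genes, and 11 (23.4%) were CM-only, against 11.0%. No mitosis gene and 0.00% of all genes were DMEM-only. BUB1 and CDC20 had a peak in CM library 1 alone, and CENPK, TOP2A and SMC4 in CM library 2 alone, a class of 1 CM library that held 5.97% of all genes. TTK had its peak in 1 DMEM library and PTTG1 peaks in 1 CM and 1 DMEM library. The remaining 12 genes had no peak at an end in any library, as did 54.1% of all genes.

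**Figure D1:**
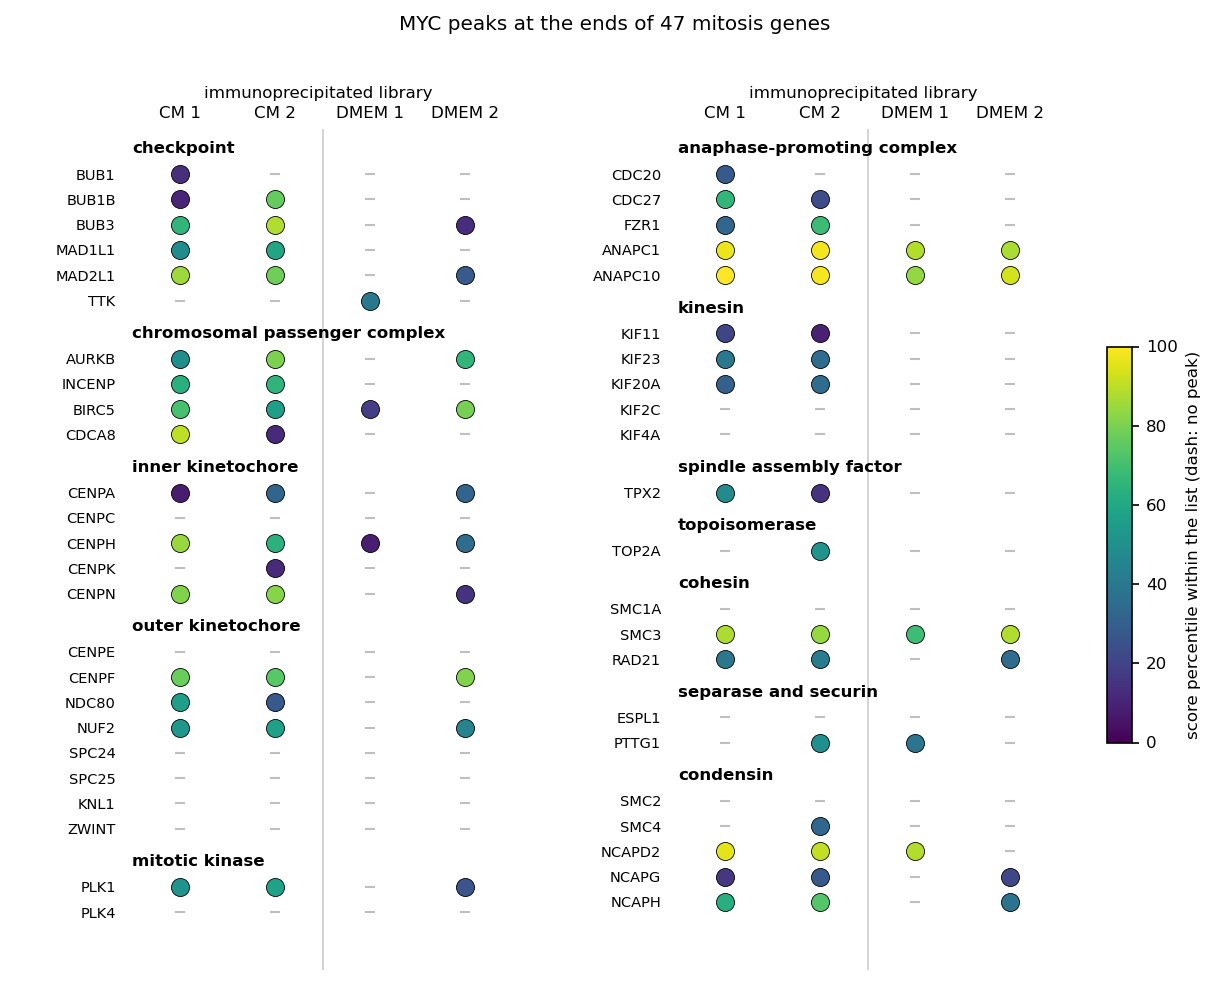
Score percentile of the highest-scoring MYC peak within 1000 bp of either end of each of the 47 genes (rows, by role) in the 4 libraries (columns), with dashes where no peak was called. Dots fill most rows in the CM columns, with 30 and 32 genes, and fewer in the DMEM columns, with 8 and 16.

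The share of mitosis genes bound in CM rested largely on the lower-scoring peaks of the CM lists. With the lists cut to equal length, 4657 top peaks each, 10 and 14 mitosis genes were bound in CM libraries 1 and 2, against 8 and 7 in DMEM libraries 1 and 2, and the difference of means was 4.5 genes in place of 19.0. These are 21.3% and 29.8% in CM and 17.0% and 14.9% in DMEM, beside 21.9% and 21.6% of all genes in CM and 16.8% and 19.8% in DMEM. Then 8 were bound in CM, or 17.0% against 18.0% of all genes, and 2 were CM-only, MAD2L1 and CENPN, or 4.26% against 1.93%. The other 6 with peaks in both shortened CM lists were ANAPC1, ANAPC10, SMC3, CENPH, CENPF and NCAPD2. MAD2L1 and CENPN had peaks in the full list of DMEM library 2, at percentiles 28.5 and 14.7, which the cut removed. None of the 11 genes that were CM-only in the full lists had a peak in both shortened CM lists. In the full lists, the median percentile of bound mitosis genes was 54.8 and 56.9 in CM libraries 1 and 2, beside 69.3 and 65.7 for all bound genes. In DMEM libraries 1 and 2 it was 54.0 and 36.6, beside 59.8 and 60.4 for all bound genes, so in each library bound mitosis genes had the lower median.

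**Figure D2:**
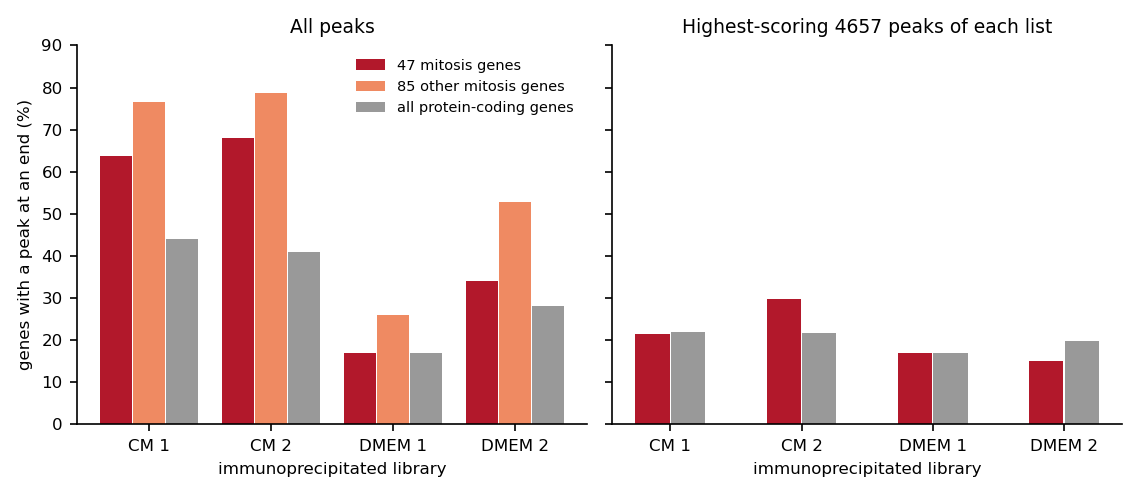
Share of genes with a MYC peak at an end (vertical axis, percent) in each library for the 47 mitosis genes, 85 other mitosis genes and all protein-coding genes with all peaks (left), and for the 47 mitosis genes and all protein-coding genes with the 4657 highest-scoring peaks of each list (right). With all peaks the mitosis genes exceed all genes in both CM libraries (63.8% and 68.1% against 43.9% and 40.9%); with lists of equal length they do so in CM library 2 (29.8% against 21.6%) and not in CM library 1 (21.3% against 21.9%).

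Among the 47, genes of the anaphase-promoting complex, the ubiquitin ligase that starts anaphase, held the highest-scoring peaks. ANAPC10, a substrate-recognition subunit on chromosome 4 at 144994575 to 145098571, had percentiles of 99.6 and 98.6 in CM libraries 1 and 2, against 83.6 and 93.0 in DMEM libraries 1 and 2, with scores of 1133 and 691 against 119 and 268. Its peak also lay at the end of the neighbouring gene ABCE1 in all 4 libraries, so it cannot be given to ANAPC10 alone. ANAPC1, a large scaffold subunit, on chromosome 2 at 111766231 to 111884193, had percentiles of 96.9 and 98.2 in CM libraries 1 and 2, against 88.6 and 87.3 in DMEM libraries 1 and 2. No other protein-coding gene had an end within 1000 bp of the ANAPC1 peaks, and they covered its annotated start in every library. FZR1, the activator of late mitosis and G1, had CM percentiles of 32.9 and 68.3, and CDC27, a core subunit, 65.9 and 22.9, both without a DMEM peak; the CDC27 peaks also lay at an end of MYL4. CDC20, the mitotic activator, had a single peak, in CM library 1, at percentile 28.1.

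Among the spindle checkpoint genes, 4 of 6 were bound in CM, or 66.7% beside 39.1% of all genes, and none in both DMEM libraries, beside 15.9% of all genes. Among 6 other checkpoint genes, those of the second list described at the end, 4 were bound in all 4 libraries, beside 15.9% of all genes. MAD2L1, whose protein captures CDC20, had percentiles of 85.2 and 78.0 in CM libraries 1 and 2, against 28.5 in DMEM library 2 and no peak in DMEM library 1. BUB3, a checkpoint adaptor, had 65.3 and 88.0 in CM libraries 1 and 2, against 12.6 in DMEM library 2 and no peak in DMEM library 1. MAD1L1, the binding platform of MAD2L1, was CM-only, at 48.3 and 59.2, with a peak that also lay at the end of MRM2. BUB1B (BUBR1) was CM-only at 10.4 and 75.8, so its place in the CM lists differed widely between the libraries. The kinase gene BUB1 had a peak in CM library 1 alone, at 14.0.

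TTK, the kinase that starts checkpoint signalling, had a peak in DMEM library 1 alone. This peak, on chromosome 6 at 80004491 to 80004713, had a score of 51 and stood at percentile 39.5 of its list. The nearest peaks to an end of TTK in CM libraries 1 and 2 were 63746 and 63799 bp away. The class of 1 DMEM library held 0.160% of all genes, 32 in number, and of these TTK was the only one with its peak in DMEM library 1. PTTG1 (securin), the inhibitor of separase, had a peak in CM library 2 at percentile 49.4 and in DMEM library 1 at 38.8. The class of 1 CM and 1 DMEM library held 0.639% of all genes, and of the 20037 genes PTTG1 was the only one with peaks in exactly CM library 2 and DMEM library 1. These 2 features were singled out after their values were seen.

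All 4 genes of the chromosomal passenger complex, which corrects faulty attachments, were bound in CM, beside 39.1% of all genes. In DMEM 1 of the 4 was bound, beside 15.9% of all genes. BIRC5 (survivin), on chromosome 17 at 78214253 to 78225635, was bound in all 4 libraries, with percentiles of 71.0 and 56.1 in CM libraries 1 and 2, against 18.3 and 79.1 in DMEM libraries 1 and 2. Its DMEM values span those of CM, so the groups overlap. AURKB, the kinase of the complex, had 48.8 and 80.4 in CM libraries 1 and 2, against 65.5 in DMEM library 2 and no peak in DMEM library 1. INCENP, the scaffold, was CM-only at 63.6 and 64.9. CDCA8 (borealin) was CM-only at 89.9 and 11.8, but the peak of CM library 1 ended 916 bp before its start and the 2 CM peaks did not overlap. Both CDCA8 peaks also lay at the end of AIRIM.

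Of the 13 kinetochore genes, 6 were bound in CM, 1 was bound in DMEM and 6 had no peak in any library. These shares, 46.2%, 7.69% and 46.2%, stand beside 39.1%, 15.9% and 54.1% of all genes. DMEM library 1 had a peak at CENPH alone among them. In the inner kinetochore, CENPH, on chromosome 5 at 69189583 to 69210357, was bound in all 4 libraries, with percentiles of 84.6 and 63.9 in CM libraries 1 and 2, against 8.27 and 35.0 in DMEM libraries 1 and 2. Both CM values lay above both DMEM values in the full lists, but not in lists of equal length, where CENPH had 49.3 and 0.805 in CM libraries 1 and 2, against 8.27 in DMEM library 1 and no peak in DMEM library 2. CENPN, which reads the CENPA nucleosome, had 81.0 and 82.0 in CM libraries 1 and 2, against 14.7 in DMEM library 2, with a peak shared with the end of CMC2. CENPA had 7.87 and 32.2 in CM libraries 1 and 2, against 31.7 in DMEM library 2, and its 2 CM peaks did not overlap. CENPK had a peak in CM library 2 alone, at 11.8 and also at an end of PPWD1, and CENPC, the inner scaffold, had none.

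In the outer kinetochore, CENPF, a large corona protein, had percentiles of 77.1 and 74.0 in CM libraries 1 and 2, against 81.0 in DMEM library 2. The 4-subunit NDC80 complex grips microtubules. NUF2 had 53.5 and 56.3 in CM libraries 1 and 2, against 45.0 in DMEM library 2, and NDC80 was CM-only at 56.1 and 27.4. Their partners SPC24 and SPC25 had no peak in any library, the nearest lying 41178 bp from an end of SPC24 and 403669 bp from an end of SPC25. The NDC80 peaks also lay at the end of METTL4 and the NUF2 peaks at the end of RGS5. The kinetochore scaffold gene KNL1, the ZW10-interacting gene ZWINT and the kinesin gene CENPE had no peak either, with the nearest 24138 bp, 1904929 bp and 28322 bp from an end.

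Of the 5 genes grouped as kinesins among the 47, 3 were bound in CM, or 60.0% beside 39.1% of all genes. CENPE, also a kinesin gene, was counted with the kinetochore. None of the 5 had a peak in DMEM, where libraries 1 and 2 had peaks at 16.8% and 28.1% of all genes. KIF11 (Eg5), the motor that separates spindle poles, was at percentiles 20.5 and 8.99 of CM libraries 1 and 2. KIF23, a motor of the central spindle, was at 39.8 and 35.0, and KIF20A, which acts in cytokinesis, at 30.1 and 35.0. KIF2C and KIF4A had no peak in any library. The second list holds 8 other kinesin genes, of which 5 were bound in CM and 3 had a DMEM peak. Among these KIF22 was bound in all 4 libraries, at 86.3 and 93.1 in CM libraries 1 and 2, against 54.8 and 75.9 in DMEM libraries 1 and 2. The KIF20A peaks also lay at the end of BRD8. TPX2, a spindle assembly factor, was CM-only too, at 47.5 and 14.2. PLK1, a kinase with many mitotic roles, had 51.6 and 57.5 in CM libraries 1 and 2, against 26.2 in DMEM library 2, and PLK4, the kinase of centriole duplication, had no peak. TOP2A, which untangles sister DNA, had a peak in CM library 2 alone, at 51.2.

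Of the 3 cohesin genes among the 47, 2 had a peak in each CM library, or 66.7% beside 39.1% of all genes. Of these, 1 also had a peak in each DMEM library, or 33.3% of the 3 beside 15.9% of all genes. SMC3, on chromosome 10 at 110567695 to 110606048, was bound in all 4 libraries, with percentiles of 87.6 and 84.0 in CM libraries 1 and 2, against 68.4 and 88.2 in DMEM libraries 1 and 2. The groups overlap, and in lists of equal length the CM values lay below the DMEM values, with 59.3 and 56.0 in CM libraries 1 and 2, against 68.4 and 80.7 in DMEM libraries 1 and 2. The highest-scoring CM peaks of SMC3 covered its start, whereas the highest-scoring DMEM peaks ended 329 and 210 bp before it, although another of the 3 peaks of DMEM library 2 at this gene reached the start. RAD21, the cleavable ring subunit, had 39.8 and 41.7 in CM libraries 1 and 2, against 35.0 in DMEM library 2. SMC1A, on the X chromosome, had no peak in any library, the nearest lying 260788 bp from an end. ESPL1 (separase), which cuts RAD21, had no peak at an end, the nearest lying 1517 bp away in CM library 1.

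The condensin count depends on how a gene start is placed. By either end, 3 of the 5 condensin genes among the 47 were bound in CM, or 60.0% beside 39.1% of all genes. NCAPH had percentiles of 62.6 and 73.3 in CM libraries 1 and 2, against 38.2 in DMEM library 2, and NCAPG had 15.9 and 27.4 in CM libraries 1 and 2, against 21.4 in DMEM library 2, where the peak overlapped neither CM peak. The NCAPG peaks also lay at an end of DCAF16. NCAPD2 appeared at 95.8 and 90.8 in CM libraries 1 and 2, against 88.3 in DMEM library 1, but that peak lies at its 3′ end, 37920 to 38666 bp from its start, and also at an end of the neighbouring GAPDH, a glycolysis gene. At the annotated start of NCAPD2 the percentiles were 28.1 and 16.5 in CM libraries 1 and 2, with no peak in DMEM. SMC2 counted as unbound because its annotated starts lie inside the gene's outermost ends. Peaks at those starts had percentiles of 86.5 and 72.5 in CM libraries 1 and 2, against 61.1 in DMEM library 2. SMC4, with a peak in CM library 2 alone by either end, which also lay at an end of IFT80, had 29.4 and 32.9 in CM libraries 1 and 2 at its annotated starts. By annotated starts all 5 of these condensin genes were bound in CM, beside 42.5% of all genes with an annotated start. This count was singled out after its values were seen.

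By annotated starts alone, among the 40 genes of the RefSeq table, 27 and 28 were bound in CM libraries 1 and 2. Of all 15843 genes with an annotated start, 47.1% and 44.4% were bound in these libraries. DMEM libraries 1 and 2 had peaks at 4 and 13 of the 40, beside 18.5% and 30.7% of all. The share of mitosis genes thus lay above that of all genes in both CM libraries. It lay below in DMEM library 1 and slightly above in DMEM library 2. Bound in CM were 25 of 40 (62.5%), against 42.5% of 15843 genes, and 12 (30.0%) were CM-only, against 11.6%. SMC2, SMC4 and NCAPD2 were the 3 genes whose set of libraries changed.

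Within the CM lists, genes that also had a DMEM peak had higher median percentiles than CM-only genes, among the mitosis genes as among all genes. Their ranges overlapped: in CM library 1, mitosis genes spanned 7.87 to 95.8 with 1 DMEM library and 10.4 to 89.9 when CM-only. The DMEM lists are shorter, and whether the ordering follows from list length was not tested. The 5 bound in all 4 libraries had median percentiles of 87.6 and 84.0 in CM libraries 1 and 2, and all 3180 such genes 89.2 and 86.6. The 12 bound in 1 DMEM library had 58.0 and 73.6, and all 2459 such genes 68.5 and 61.4. The 11 CM-only genes had 47.5 and 35.0, and all 2198 such genes 48.3 and 40.3. For the 5 genes bound in all 4 libraries the mean percentile was higher in CM than in DMEM by a median of 10.8 points, and for all 3180 by 16.2 points. The 5 differences, CM minus DMEM, were 52.6 for CENPH, 14.8 for BIRC5, 10.8 for ANAPC10, 9.61 for ANAPC1 and 7.47 for SMC3. They depend on list length: with equal lists the median was 8.63 points for the 3 genes still bound in all 4 libraries and 0.985 points for 2464 genes, and the direction turned for SMC3. BIRC5 then had 4.57 in CM library 1 and no peak in CM library 2, against 18.3 and 65.7 in DMEM libraries 1 and 2.

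**Figure D3:**
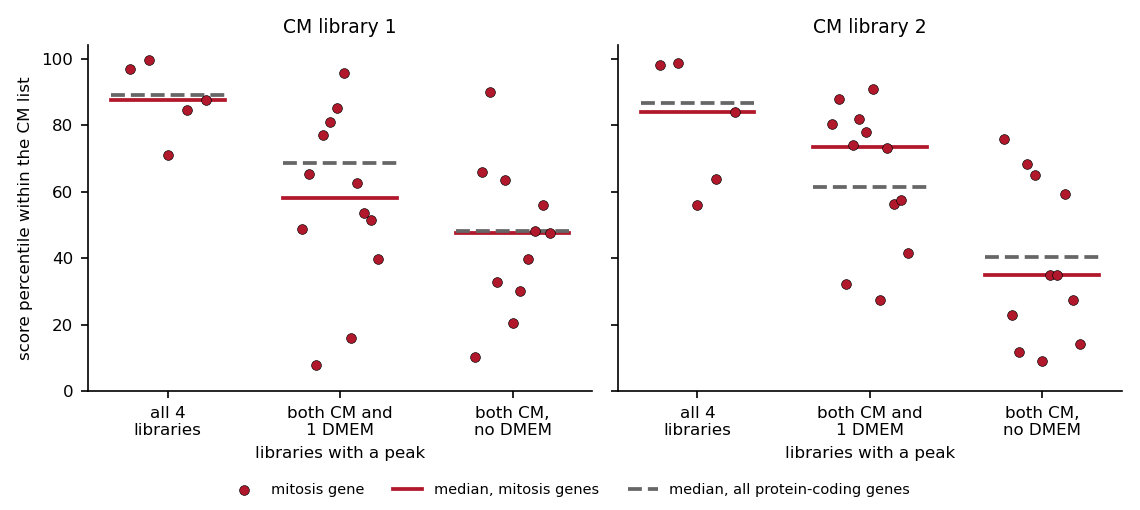
Score percentile within the list of CM library 1 (left) and CM library 2 (right) for mitosis genes (points) by the libraries in which they had a peak; solid lines are their medians and dashed lines the medians of all protein-coding genes in the same class. The CM-only genes have the lowest medians, 47.5 and 35.0, and the genes bound in all 4 libraries the highest, 87.6 and 84.0. The points of the classes overlap.

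Most mitosis genes with a peak in 1 DMEM library had it in library 2. Of the 12 genes bound in both CM and 1 DMEM library, 11 had the peak in DMEM library 2, and NCAPD2 in DMEM library 1. Of all 2459 such genes, 2290 had it in DMEM library 2. Without DMEM library 2, 22 of the 47 genes (46.8%) would be CM-only and 8 (17.0%) bound in DMEM, beside 22.4% and 16.8% of all genes. Without DMEM library 1 the counts were 12 (25.5%) and 16 (34.0%), beside 11.8% and 28.1% of all genes.

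The shares of overlapping peaks at the mitosis genes lay near those over all genes. Of 45 pairs of a CM and a DMEM peak at the same gene, 42 (93.3%) overlapped, the exceptions being 2 pairs at NCAPG and 1 at CENPA, beside 94.5% over all genes. Of the 28 genes bound in CM, 26 (92.9%) had overlapping CM peaks, the exceptions being CDCA8 and CENPA, beside 92.6% over all genes. The peaks were wider in CM, with medians of 732.0 and 574.0 bp at the mitosis genes in CM libraries 1 and 2, against 450.0 and 406.5 bp in DMEM libraries 1 and 2. For all bound genes the medians were 1161.0 and 878.0 bp in CM and 528.0 and 537.5 bp in DMEM. At genes with an annotated start, the highest-scoring peak covered it in 20 of 25 and 21 of 27 cases in CM libraries 1 and 2, against 3 of 5 and 4 of 12 in DMEM libraries 1 and 2. These are 80.0% and 77.8% in CM and 60.0% and 33.3% in DMEM, beside 72.1% and 70.5% of all genes in CM and 53.4% and 61.9% in DMEM. Of the 35 genes with any peak, 12 (34.3%) had a peak that also lay at the end of another protein-coding gene, beside 35.8% over all genes with a peak.

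**Figure D4:**
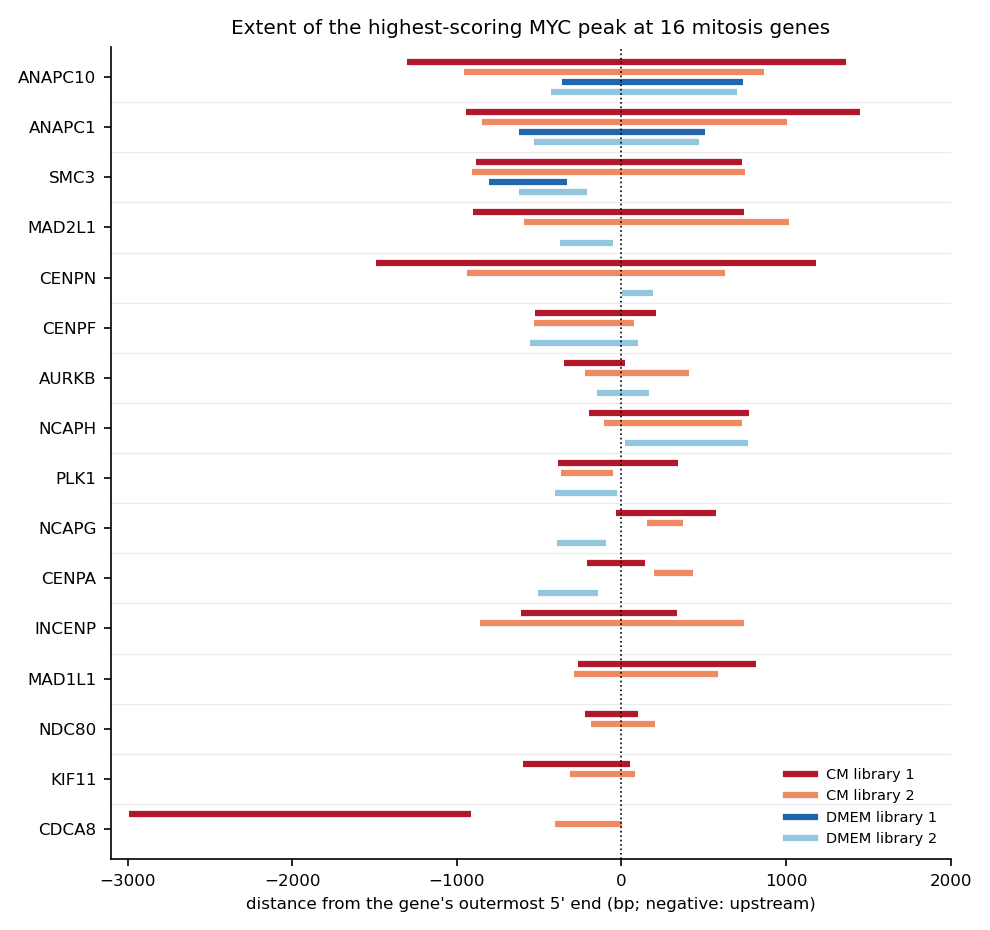
Extent of the highest-scoring MYC peak in each library (coloured bars, CM above DMEM) around the outermost 5′ end (dotted line, position 0, in bp) of 16 mitosis genes. CM peaks of ANAPC10, ANAPC1, SMC3 and MAD2L1 are wider than the DMEM peaks, and the CDCA8 peak of CM library 1 ends 916 bp upstream.

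A further 85 genes of mitosis, listed by role, had larger shares bound than the 47 in all 4 libraries. CM libraries 1 and 2 had 65 and 67 of them, against 22 and 45 in DMEM libraries 1 and 2. Of these, 60 were bound in CM (70.6%), 22 in all 4 libraries (25.9%), and 16 were CM-only (18.8%), while 13 had no peak (15.3%). Over all genes these shares were 39.1%, 15.9%, 11.0% and 54.1%. Among those bound in all 4 libraries, CENPP, an inner kinetochore gene, had the highest percentiles, 99.4 and 98.8 in CM libraries 1 and 2, against 99.0 and 98.3 in DMEM libraries 1 and 2, at a peak shared with the end of NOL8. TRIP13, which dismantles checkpoint complexes, had 98.7 and 97.5 in CM libraries 1 and 2, against 95.0 and 96.5 in DMEM libraries 1 and 2, at a peak shared with BRD9. CENPT, which links the centromere to the NDC80 complex, had 97.9 and 97.8 in CM libraries 1 and 2, against 97.5 and 96.3 in DMEM libraries 1 and 2, at a peak shared with NUTF2. FBXO5, an inhibitor of the anaphase-promoting complex, shared its peak with no other protein-coding gene and had 96.5 and 97.3 in CM libraries 1 and 2, against 61.0 and 93.0 in DMEM libraries 1 and 2. The CM-only genes with the highest percentiles were MIS12, TACC3, CENPM and MASTL, with means of 70.3, 62.1, 59.6 and 58.1 over the CM libraries. Their peaks also lay at an end of another gene, DERL2 for MIS12, TMEM129 for TACC3, SMIM45 for CENPM and YME1L1 for MASTL. By role, bound in CM were 12 of 14 further genes of the anaphase-promoting complex, 5 of 6 of the checkpoint, 10 of 16 of the inner and 5 of 7 of the outer kinetochore, 8 of 10 of cohesin and 3 of 3 of condensin. The share of all genes bound in CM was 39.1%.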

How the data were processed

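MYC ChIP-seq peak lists of 4 libraries, 2 per condition, were used, and the 2 inputs were not. MACS2 2.1.1.20160309, Picard 2.9.0, Bowtie2 2.3.4 (GRCh38), Trim Galore 0.4.3 and SAMtools 1.3.1 were used by the authors, per the submitters' processing notes. Not given in the sources used here were their settings and the control of each list. The deposited peak score was made by the authors, 1 list per library, with values of at least 13, and was only ranked within a list (ties averaged). What the score measures is not stated in the files; MACS2 usually writes a scaled −log10 q-value there. The authors' common lists per condition, which hold mean scores, served as an alternative. Read depth is unknown.

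Gene ends came from RefSeq (GRCh38.p14) and strands and starts from its promoter table, which held 15843 of 20037 protein-coding genes. Starts of peaks were counted from 1. Where a gene had several peaks, the highest-scoring one was taken. Peak calling at gene ends was tested on simulated peaks with known places. Counts per library were set against each other with an exact permutation test, two-sided; gene lists were described by counts. No percentile of a single gene was tested. The genes and lists were chosen with earlier results of these data known. The rule for named genes was all 47 by name, values in every library for those bound in all 4 or CM-only, and of 85 other mitosis genes the 4 bound in all 4 libraries and the 4 CM-only with the highest mean CM percentile; values of the remaining bound genes were added. Alternatives were another window (500 or 2500 bp), peak midpoints, annotated starts, a score minimum, lists of equal length and the common lists. Others were genes with a peak also at another gene's end left out, the nearest peak, each library left out and a replicate block. A peak list does not show whether the cells express markers of the labelled line. Python 3.11.15, pandas 2.3.3, NumPy 2.4.6, SciPy 1.17.1 and matplotlib 3.10.9 were used.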

Additional observations from a re-analysis of the deposited data

How the results depend on the processing

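Mean CM counts stayed above mean DMEM counts under each alternative run. The difference was 4.5 genes in lists of equal length and 11.0 without genes whose peak also lay at another gene's end. It was 15.0 to 23.0 with 1 library left out and 17.0 to 19.0 otherwise. The median percentile difference lay between 8.01 and 16.4 points. Of 127 values under alternatives, 22 counts moved by over 1.5 times. Most of the 127 are counts of genes, which cannot change sign. The difference of mean counts and the median percentile difference could have, and kept theirs, although SMC3 alone turned in lists of equal length. By annotated starts (40 genes), 3 genes were bound in DMEM and 3 in all 4 libraries, and cohesin had 1 and condensin 5 bound in CM. Of all genes with an annotated start, 17.5% were bound in DMEM and 17.5% in all 4 libraries. BIRC5, CENPH and the cohesin gene RAD21 have no annotated start in the RefSeq table and were not counted. ANAPC1, ANAPC10 and SMC3 remained bound in all 4 libraries. With a score of at least 50, 3 (6.38%) were bound in DMEM and 3 in all 4, beside 11.0% of all genes in each case. In lists of equal length, 8 were bound in CM, 2 CM-only and 3 in all 4, with 3 kinetochore, 1 checkpoint, 0 kinesin, 1 cohesin and 1 condensin genes bound in CM. Over all genes, 18.0% were then bound in CM, 1.93% CM-only and 12.3% bound in all 4. Without the 12 genes whose peak also lay at another protein-coding gene's end, 18 were bound in CM and 6 CM-only, with 3 kinetochore and 1 condensin genes bound in CM. The 18 and 6 are 51.4% and 17.1% of the remaining 35 genes, beside 39.1% and 11.0% of all genes, from which none were left out. All 12 were picked among genes with a peak, so these counts could only fall. Leaving out 1 library gave 5 to 16 genes bound in DMEM and 5 to 16 in all 4, and 12 to 22 CM-only, with 8 bound in DMEM without DMEM library 2. Over all genes these shares were 15.9% to 28.1%, 15.9% to 27.3% and 11.8% to 22.4%. The highest values came without DMEM library 1 for DMEM and all 4, and without DMEM library 2 for CM-only. The cause of these shifts was not tested beyond the alternatives' own construction of shorter lists or fewer genes. A replicate block, with relabelling only within replicate numbers, left the difference at 19.0 genes with an exact permutation p of 0.500, the smallest it allows. Across 3180 genes bound in all 4 libraries, the differences in score percentile between libraries 1 and 2 correlated at 0.0496 between the conditions. Percentiles within a list cannot show a batch shared in depth or number of peaks. Whether equal replicate numbers mark a shared batch was therefore not tested. Depth, which is unknown, limits every count.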

Other observations

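Several peaks at mitosis genes also lay at an end of a noncoding gene. The peaks of MAD2L1 also lay at MAD2L1-DT, that of CDC20 at CDC20-DT, those of KIF23 at KIF23-AS1 and those of RAD21 at RAD21-AS1, and the lists cannot tell which of the paired genes a peak belongs to. Among the 85 other mitosis genes, those of the anaphase-promoting complex had 6 bound in all 4 libraries, 5 in both CM and 1 DMEM library, 1 CM-only, 1 in a single CM library and 1 with no peak. The other spindle assembly genes had 1 bound in all 4 libraries, 3 in both CM and 1 DMEM library and 4 CM-only, and 4 of them had no peak. Of all genes, 15.9% were bound in all 4 libraries and 12.3% in both CM and 1 DMEM library. CM-only genes were 11.0% of all genes, and 54.1% had no peak.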
